A study of Mus musculus with 36 samples.

Results

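ATP-binding cassette (ABC) transporters are membrane pumps that use ATP to move bile salts, phospholipids, sterols, fatty acids, haem intermediates and drug conjugates across membranes. The members described here were all genes of a mouse liver RNA-seq table whose name consists of ABC, a subfamily letter from A to G and a number. The rule found 46 of the 18591 genes in the table, 13 in subfamily A, 9 in B, 10 in C, 4 in D, 1 in E, 3 in F and 6 in G. The family members Tap1, Tap2 and Cftr carry other kinds of symbols and were not included by the rule.

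The libraries came from C57BL/6 mouse livers in 4 groups of 3. The first held Tet1 knockout mice with a YAP transgene (Tet1 -/- YAP Tg) that received the DNA methyltransferase inhibitor decitabine at 0.5 mg/kg per day into the peritoneum for 10 days from 1 month of age while kept on doxycycline, called decitabine livers below. The second held Tet1 -/- YAP Tg mice without decitabine, called Tet1 KO YAP Tg livers, the third held YAP Tg mice with intact Tet1, and the fourth held wild-type controls. All groups drank water with doxycycline (50 mg/L), which switches such transgenes on, either from 1 month of age or through nursing mothers. The labels do not say which route a given library had. No Tet1 knockout without the transgene and no decitabine-treated liver of another genotype was among the libraries, so every Tet1 result is within transgenic liver and every decitabine result is within Tet1 knockout transgenic liver. The labels do not name the promoter that drives YAP, the species of the transgene, the deleted part of Tet1, or whether the 3 libraries of a group came from separate animals. P-values therefore measure only the spread between these libraries, which may be technical.

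In the liver, hepatocytes are polarised cells with a bile-facing (canalicular) membrane and a blood-facing (basolateral) membrane, and different ABC pumps sit on each. The canalicular pumps secrete bile salts, phosphatidylcholine, sterols and conjugated bilirubin into bile, and the basolateral pumps return conjugates and cholesterol to blood. Another set, most of subfamily D, imports fatty acids and fatty acyl-CoA into peroxisomes for shortening. YAP is a transcriptional co-activator that acts through TEAD factors, and TET1 is an enzyme that oxidises methylated cytosine in DNA.

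Levels are given in normalised reads, which are reads scaled to library size and composition, and fold changes are on the log2(normalised reads + 0.5) scale, so they understate the change of low genes. A gene was called higher or lower at an adjusted p under 0.05 (limma with an expression trend, Benjamini-Hochberg adjustment over all genes tested, two-sided). Of the 46 members, 41 reached 0.5 normalised reads in at least 3 libraries and were tested. Abca4 and Abcc12 passed this filter only through the groups in which they were high, so counts over the 41 tested members describe them and carry no weight of their own. The values of the 9 libraries without decitabine were deposited on this scale. The decitabine values were deposited as TPM, a unit that divides by gene length, and were converted here, and for some genes that conversion may be wrong by a factor of 2.

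The main bile-facing pumps Abcb11, Abcb4, Abcc2, Abcg2 and Abcg8 and the peroxisomal Abcd3 were lower in YAP Tg livers than in control livers, with group means 2.20-fold (Abcc2) to 3.83-fold (Abcd3) apart, while the mean of the drug pump Abcb1a was 31.3-fold higher. In YAP Tg livers against control livers, 15 members were higher, where 36.1% of all genes tested were higher, and 21 were lower, where 34.5% of all genes were lower; together that is 36 of 41, against 70.5% of all genes. At a change of at least 2-fold, 9 members were higher (background 14.5%) and 11 were lower (background 9.38%). The median member had a log2 fold change of -0.30, against 0.01 for all genes. In Tet1 KO YAP Tg livers against YAP Tg livers, 22 members were higher (background 33.4%) and 14 were lower (background 34.0%), with 67.4% of all genes called in either direction. At 2-fold, 9 were higher (background 8.13%) and 11 were lower (background 12.5%), and the median was 0.40, against 0.00418 for all genes. The comparisons share the YAP Tg libraries, so a deviation of those libraries enters both with opposite sign.

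Tet1 KO YAP Tg livers differed from control livers by smaller steps. In this comparison 12 members were higher (background 20.2%) and 13 were lower (background 18.8%), with 39.0% of all genes called in either direction and a family median of 0.00418. Changes of at least 2-fold were seen upward for 3 members (background 1.89%), Abcb1a, Abcb1b and Abca3, and downward for 4 (background 1.87%), Abcd2, Abcc3, Abca8b and Abca8a. In decitabine livers against untreated Tet1 KO YAP Tg livers, 14 members were higher (background 32.8%) and 16 were lower (background 27.9%), with 60.7% of all genes called in either direction. At 2-fold, 9 were higher (background 13.9%) and 7 were lower (background 12.3%), and the median was -0.17, against 0.07 for all genes. With all libraries set on the TPM scale, the same comparison gave 16 higher and 9 lower members in place of 14 and 16.

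**Figure D1:**
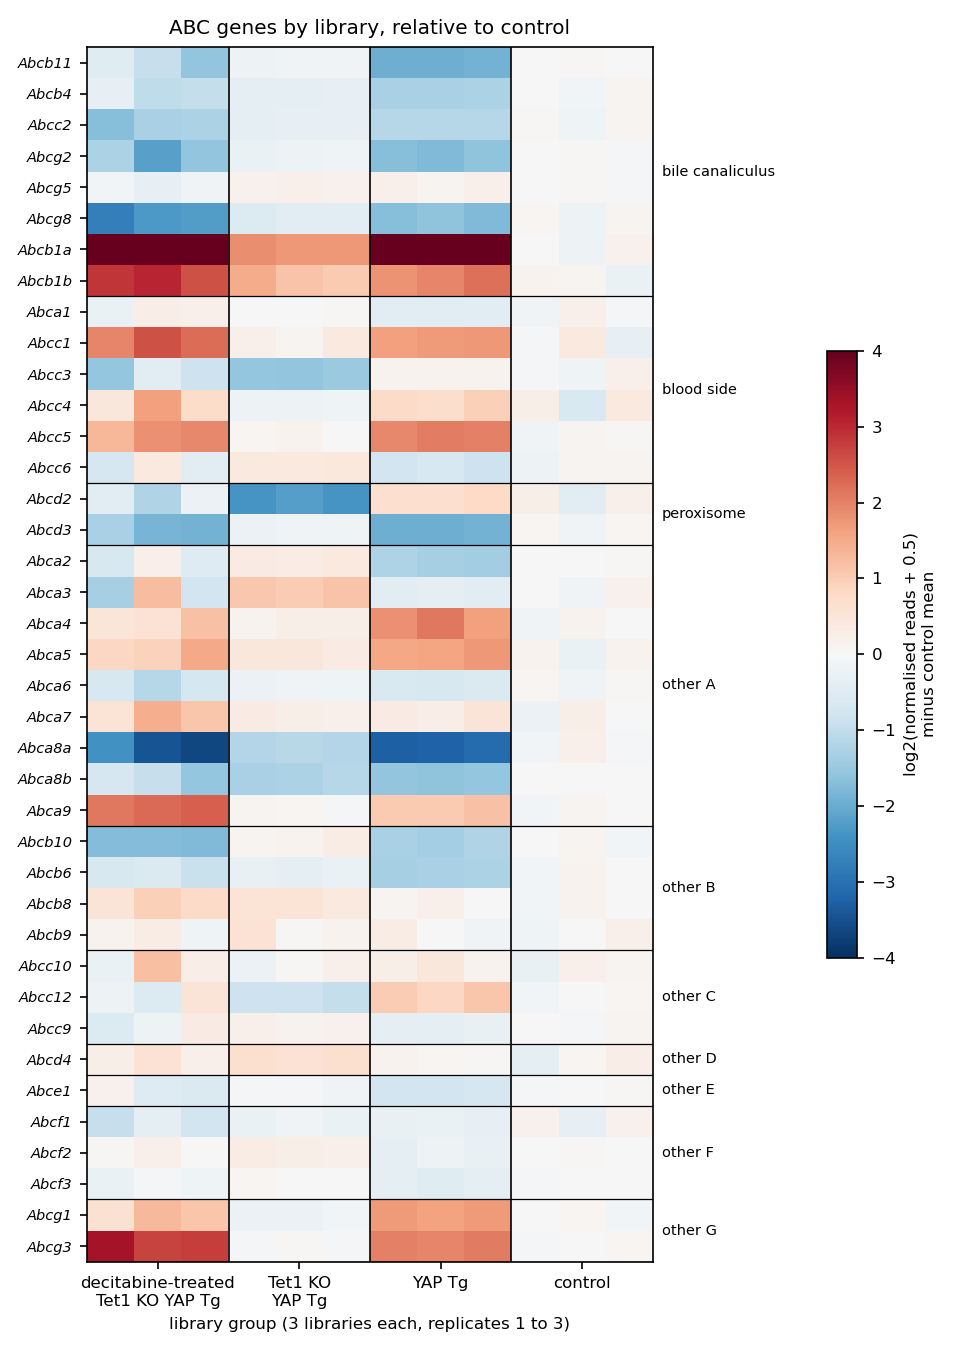
Level of 39 of the 41 tested members (rows, by route and subfamily) in each library (columns, decitabine, Tet1 KO YAP Tg, YAP Tg and control livers, 3 libraries each), as log2(normalised reads + 0.5) minus the mean of the control libraries; the colour scale ends at -4 and 4. Abcb11, Abcd3, Abcg2 and Abcg8 are low in YAP Tg and decitabine livers and nearer to control in Tet1 KO YAP Tg livers, whereas Abcb1a is high in all 3 groups.

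Library totals ran from 19082417 to 31727266 reads assigned to genes. Within the YAP Tg and the Tet1 KO YAP Tg group the 3 libraries differed from each other by an excess coefficient of variation of 0.008 to 0.039 beyond counting error, as did control libraries 1 and 3 (0.023), whereas control library 2 stood 0.124 to 0.133 from the others and the decitabine libraries 0.177 to 0.307 from each other. Adding together libraries under 0.05 apart turned the 3 YAP Tg libraries into 1, and likewise the 3 Tet1 KO YAP Tg libraries. Neither group then had replicates, and their comparison set 1 library against 1. The error estimate of that setting could come only from control and decitabine libraries. Calls held or lost in it, here and below, therefore do not judge how YAP Tg or Tet1 KO YAP Tg livers vary. With libraries under 0.05 apart added together, 7 remained, and the calls came to 9 higher and 11 lower members in YAP Tg against control livers, 3 and 6 in Tet1 KO YAP Tg livers against YAP Tg livers, and 8 and 6 in decitabine against untreated livers. In Tet1 KO YAP Tg against control livers limma then called 0 members, with 2 higher and 4 lower at an unadjusted p under 0.05; with the libraries apart, edgeR called 11 higher and 14 lower and DESeq2 11 and 13. Each of the 20, 9 and 14 members called after adding libraries together was also called with the libraries apart, and the calls lost are named with each route and subfamily below. Tet1 itself, the deleted gene, had 1.6, 1.73 and 3.51 normalised reads in decitabine livers. It had 1.25, 0.954 and 0.586 in Tet1 KO YAP Tg livers, against 9.9, 8.59 and 8.97 in YAP Tg livers and 0.935, 0.756 and 0.356 in control livers. Tet1 in untreated knockout livers was thus below YAP Tg livers but overlapped the controls, and its level does not tell the knockout from the controls. In decitabine livers it was above the controls and higher than in untreated livers (0.92 (SE 0.27, adjusted p = 0.00935)). Yap1 had 88.1, 174 and 147 normalised reads in decitabine livers, 48.5, 52.5 and 52.4 in Tet1 KO YAP Tg livers, 27.6, 32.1 and 29.9 in YAP Tg livers and 58.6, 47.1 and 58.8 in control livers. It was lower in YAP Tg than in control livers (-0.86 (SE 0.09, adjusted p = 3.64e-06)) and higher in decitabine than in untreated livers (1.35 (SE 0.19, adjusted p = 5.09e-05)), so Yap1 reads do not show the transgene in YAP Tg livers.

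Markers of several other cell types moved with the groups, but not those of all. Of 6 endothelial markers, 3 were higher and 2 lower in YAP Tg than in control livers (median 0.14), where 36.1% of all genes were higher and 34.5% lower. Of 7 stellate and fibroblast markers, 2 were higher and 4 lower there. The 4 neutrophil and the 3 tested lymphocyte markers were all higher there. All 8 Kupffer cell and macrophage markers were higher in YAP Tg than in control livers and lower in Tet1 KO YAP Tg than in YAP Tg livers, and all 8 were higher in decitabine than in untreated livers. Their summed level was 1796 to 1889 normalised reads in decitabine livers, 326 to 343 in Tet1 KO YAP Tg livers, 1388 to 1414 in YAP Tg livers and 279 to 362 in control livers. The cholangiocyte and progenitor list summed to 879.8 to 2722 in decitabine livers, 319 to 340.1 in Tet1 KO YAP Tg livers, 1698 to 1725 in YAP Tg livers and 57 to 70.5 in control livers. Nearly all of that sum was Spp1, while Krt19, which defines bile duct cells, averaged 1.15 or less in every group. Of the 7 markers on this list, 4 were higher and 0 lower in YAP Tg than in control livers. In Tet1 KO YAP Tg livers 2 were higher and 3 lower than in YAP Tg livers, and 1 was higher and 0 lower than in control livers. In decitabine against untreated livers 3 were higher and 3 lower. Pericentral hepatocyte markers were all 4 lower in YAP Tg than in control livers and all 4 higher in Tet1 KO YAP Tg than in YAP Tg livers, and all 4 were lower in decitabine than in untreated livers. Their sums were 158 to 284 in decitabine livers, 5684 to 5919 in Tet1 KO YAP Tg livers, 186 to 191.0 in YAP Tg livers and 8925 to 9228 in control livers. Of the general hepatocyte markers, 4 of 6 were lower in YAP Tg than in control livers, 5 of 6 were higher and 1, Alb, was lower in Tet1 KO YAP Tg than in YAP Tg livers, and 3 of 6 were lower in Tet1 KO YAP Tg than in control livers. In decitabine against untreated livers 4 of 6 were lower and 1 was higher. The hepatocyte sums were 95052 to 113794 in decitabine livers, 49314 to 51882 in Tet1 KO YAP Tg livers, 108656 to 111089 in YAP Tg livers and 102360 to 123462 in control livers. Most of each sum was Alb, with means of 102445, 41339, 106706 and 99329 in these 4 groups, so the sum follows Alb and not the other 5 markers. All 4 erythroid markers were lower in YAP Tg than in control livers (median -1.89) and higher in Tet1 KO YAP Tg than in YAP Tg livers (median 1.57), and 3 of 4 were lower in decitabine than in untreated livers (median -1.75). No list had a gene at 0 in every library of a group. In bulk liver, fewer cells of a type and less RNA per cell cannot be told apart, and the part of these marker differences in the ABC results was not tested.

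The bile-facing route was measured through 8 members, and its largest pumps moved together while the drug pumps Abcb1a and Abcb1b moved the other way. In YAP Tg against control livers 5 members were lower and 3 higher (median log2 fold change -1.21), and in Tet1 KO YAP Tg livers against YAP Tg livers 5 were higher, 2 lower and 1 was not called (median 0.85). In Tet1 KO YAP Tg against control livers 3 were higher and 5 lower, with a median of -0.18. In decitabine against untreated livers 2 were higher and 6 lower, with a median of -0.63. Over all genes tested, the shares higher and lower were 36.1% and 34.5%, 33.4% and 34.0%, 20.2% and 18.8%, and 32.8% and 27.9% in these comparisons, in the same order. With near-identical libraries added together, the calls of 7 of the 8 members held in YAP Tg against control livers, Abcg5 being lost (adjusted p = 0.705). In Tet1 KO YAP Tg livers against YAP Tg livers only the Abcb1a call then held. The rises of Abcb11, Abcb4, Abcc2, Abcg2 and Abcg8 kept log2 fold changes of 0.78 to 1.78 but were not called (adjusted p = 0.0626, 0.188, 0.225, 0.068 and 0.0743, in that order), nor was the fall of Abcb1b (adjusted p = 0.289). In decitabine against untreated livers Abcb11 (adjusted p = 0.166), Abcb4 (adjusted p = 0.386) and Abcg5 (adjusted p = 0.269) lost their calls, and no call of the route held in Tet1 KO YAP Tg against control livers.

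Abcb11, the bile salt export pump (chromosome 2, 69238282 to 69342616, minus strand, mm10), had 758, 559.7 and 356 normalised reads in decitabine livers and 933, 969.6 and 976 in Tet1 KO YAP Tg livers. The values were 273, 277 and 287 in YAP Tg livers and 1049.7, 1108 and 1045 in control livers. YAP Tg livers stood far below both neighbouring groups, the Tet1 KO YAP Tg libraries came to just under the controls, and the 3 decitabine libraries were spread between these levels without overlapping either. The change was -1.93 (SE 0.047, adjusted p = 7.42e-12) in YAP Tg against control livers and 1.78 (SE 0.047, adjusted p = 2.07e-11) in Tet1 KO YAP Tg livers against YAP Tg livers. Decitabine livers differed from untreated ones by -0.85 (SE 0.19, adjusted p = 0.00217). The small difference between Tet1 KO YAP Tg and control livers was -0.15 (SE 0.047, adjusted p = 0.022), and it was not called without Tet1 KO YAP Tg library 1 (log2 -0.13, adjusted p = 0.0943) or library 2 (log2 -0.16, adjusted p = 0.0552).

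Abcb4, the floppase that supplies phosphatidylcholine to bile (chromosome 5, 8893721 to 8959226, plus strand), had 256, 161 and 168 normalised reads in decitabine livers and 245, 255 and 259 in Tet1 KO YAP Tg livers. It had 131, 132 and 135 in YAP Tg livers and 327, 302 and 347 in control livers. The YAP Tg values were the lowest, and the decitabine libraries overlapped the untreated ones because library 1 lay among them. Abcb4 changed by -1.29 (SE 0.055, adjusted p = 1.18e-09) in YAP Tg against control livers and by 0.93 (SE 0.055, adjusted p = 2.63e-08) in Tet1 KO YAP Tg livers against YAP Tg livers. Its decitabine difference of -0.41 (SE 0.14, adjusted p = 0.0255) was not called in 4 of the 6 fits that left out a library, where the adjusted p reached 0.0989, or on the TPM scale (log2 -0.036).

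Abcc2, which exports conjugated bilirubin and other glucuronides and glutathione conjugates into bile (chromosome 19, 43782308 to 43838218, plus strand), had 202, 268 and 278 normalised reads in decitabine livers and 504, 524 and 533 in Tet1 KO YAP Tg livers. There were 304, 302 and 303 in YAP Tg livers, against 689.8, 594 and 714 in control livers. The 4 groups did not overlap, and decitabine livers held the lowest values. The log2 fold change was -1.13 (SE 0.064, adjusted p = 1.48e-08) in YAP Tg against control livers, 0.78 (SE 0.064, adjusted p = 4.94e-07) in Tet1 KO YAP Tg livers against YAP Tg livers and -1.07 (SE 0.12, adjusted p = 5.04e-06) in decitabine against untreated livers. Abcg2, which works as a dimer and carries urate, porphyrins and sulphated conjugates (chromosome 6, 58596672 to 58692451, plus strand), had 76.6, 40.1 and 61.9 normalised reads in decitabine livers and 154, 160.4 and 164 in Tet1 KO YAP Tg livers. YAP Tg livers had 55.6, 54 and 60.2, and control livers had 187, 189 and 176. Here the decitabine and YAP Tg values overlapped at the low end, and the Tet1 KO YAP Tg and control values did not overlap at the high end. Abcg2 changed by -1.69 (SE 0.056, adjusted p = 1.27e-10) in YAP Tg against control livers, by 1.49 (SE 0.056, adjusted p = 5.07e-10) in Tet1 KO YAP Tg livers against YAP Tg livers and by -1.46 (SE 0.17, adjusted p = 8.37e-06) in decitabine against untreated livers.

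Abcg5 and Abcg8 encode the partners of 1 sterol pump that sends cholesterol and plant sterols into bile, and they lie on opposite strands of chromosome 17. They did not keep step. Abcg8 (chromosome 17, 84676302 to 84700333, plus strand) had 10.2, 14 and 14.7 normalised reads in decitabine livers and 48.2, 51.4 and 51.4 in Tet1 KO YAP Tg livers. The values were 21.5, 22.8 and 20.4 in YAP Tg livers and 74.7, 62.1 and 77.2 in control livers. Abcg5 (chromosome 17, 84658234 to 84682923, minus strand) had 49.9, 43 and 49.5 normalised reads in decitabine livers and 62, 62.3 and 61.3 in Tet1 KO YAP Tg livers. It had 62.7, 58.7 and 63.1 in YAP Tg livers and 54.3, 56.7 and 52.3 in control livers. Abcg8 was lower in YAP Tg livers than in either neighbouring group and lowest in decitabine livers, with no overlap between the 4 groups, whereas Abcg5 varied little among the 9 libraries without decitabine. The log2 fold changes of Abcg8 were -1.70 (SE 0.082, adjusted p = 3.66e-09) in YAP Tg against control livers, 1.21 (SE 0.082, adjusted p = 9.30e-08) in Tet1 KO YAP Tg livers against YAP Tg livers and -1.93 (SE 0.13, adjusted p = 5.33e-08) in decitabine against untreated livers. Those of Abcg5 were 0.18 (SE 0.054, adjusted p = 0.012) in YAP Tg against control livers, 0.0082 (SE 0.054, adjusted p = 0.901) in Tet1 KO YAP Tg livers against YAP Tg livers and -0.38 (SE 0.085, adjusted p = 0.00172) in decitabine against untreated livers. Abcg5 was not called in YAP Tg against control livers without YAP Tg library 1 (log2 0.16, adjusted p = 0.0527), nor under decitabine on the TPM scale (log2 -0.013). The difference in change between the partners was not tested, and their deposited gene models overlap by 6622 bases on opposite strands, so without stranded counting, which the labels do not state, reads in the overlap cannot be assigned to one or the other.

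The DNA between the RefSeq start of Abcg5 and 1 of 2 RefSeq starts of Abcg8 is shown because the stretch is short and lies upstream of both. That Abcg8 start is at 84683121, 6819 bases inside the deposited Abcg8 model, whose own start, 84676302, RefSeq lists too. The stretch is therefore not upstream of the Abcg8 model whose reads are given above. It spans chr17:84683012-84683120 (109 bases, GRCm38.p6, mm10) and is printed on the plus strand, from the Abcg5 side to the Abcg8 side. Capitals mark GGAATG, a motif bound by TEAD factors, and AGATAA, a motif that zinc finger factors of the GATA kind bind, which here reads as its reverse complement TTATCT. Both strands were searched and the motifs did not overlap.
Abcg5 to Abcg8: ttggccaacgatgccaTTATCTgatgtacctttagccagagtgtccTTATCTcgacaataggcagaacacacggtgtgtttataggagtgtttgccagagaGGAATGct
GGAATG occurs at 1 place, starting 8 bases before that Abcg8 start, and AGATAA at 2, starting 93 and 63 bases before it. Of all RefSeq windows of that length next to a gene start, 5.22% hold GGAATG and 3.98% hold AGATAA on either strand. A match in these letters is a description of the sequence and not a binding site.

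Abcb1a and Abcb1b, the mouse multidrug resistance pumps that share the role of the 1 human gene ABCB1, went the other way. Abcb1a (chromosome 5, 8660092 to 8748570, plus strand) had 96.8, 110.4 and 76.5 normalised reads in decitabine livers and 12.7, 11.8 and 11.7 in Tet1 KO YAP Tg livers. There were 101, 96.2 and 102 in YAP Tg livers, against 3.21, 2.71 and 3.62 in control livers. It was at a few normalised reads in controls and around 100 in YAP Tg and decitabine livers, which overlapped each other, with Tet1 KO YAP Tg livers between and clear of both. The log2 fold change was 4.77 (SE 0.091, adjusted p = 1.04e-12) in YAP Tg against control livers, the largest rise of the family there, -2.99 (SE 0.091, adjusted p = 7.81e-11) in Tet1 KO YAP Tg livers against YAP Tg livers and 2.90 (SE 0.13, adjusted p = 1.14e-09) in decitabine against untreated livers. Unlike Abcb11, Abcb1a was well above control in Tet1 KO YAP Tg livers (1.78 (SE 0.091, adjusted p = 6.45e-08)).

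Abcb1b (chromosome 5, 8798147 to 8866314, plus strand) had 14.1, 16.1 and 11.4 normalised reads in decitabine livers and 5.19, 4 and 3.68 in Tet1 KO YAP Tg livers. YAP Tg livers had 6.55, 7.32 and 8.82, and control livers had 1.75, 1.69 and 1.19. It was highest in decitabine livers, then in YAP Tg livers, and no 2 of the 4 groups overlapped. Its log2 fold changes were 1.98 (SE 0.16, adjusted p = 3.98e-07) in YAP Tg against control livers, -0.76 (SE 0.16, adjusted p = 0.00136) in Tet1 KO YAP Tg livers against YAP Tg livers, 1.23 (SE 0.16, adjusted p = 1.33e-04) in Tet1 KO YAP Tg against control livers and 1.58 (SE 0.18, adjusted p = 6.24e-06) in decitabine against untreated livers. Abcb1a and Abcb1b are near-identical copies, so the split of reads between them is uncertain, although Abcb1a held most of the reads in all 12 libraries. Abcb1a, Abcb1b and Abcb4 stand in a row on the plus strand of chromosome 5, with no other gene of the table between them. Within this row Abcb4 was lower in YAP Tg livers than in controls and its neighbours were higher.

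**Figure D2:**
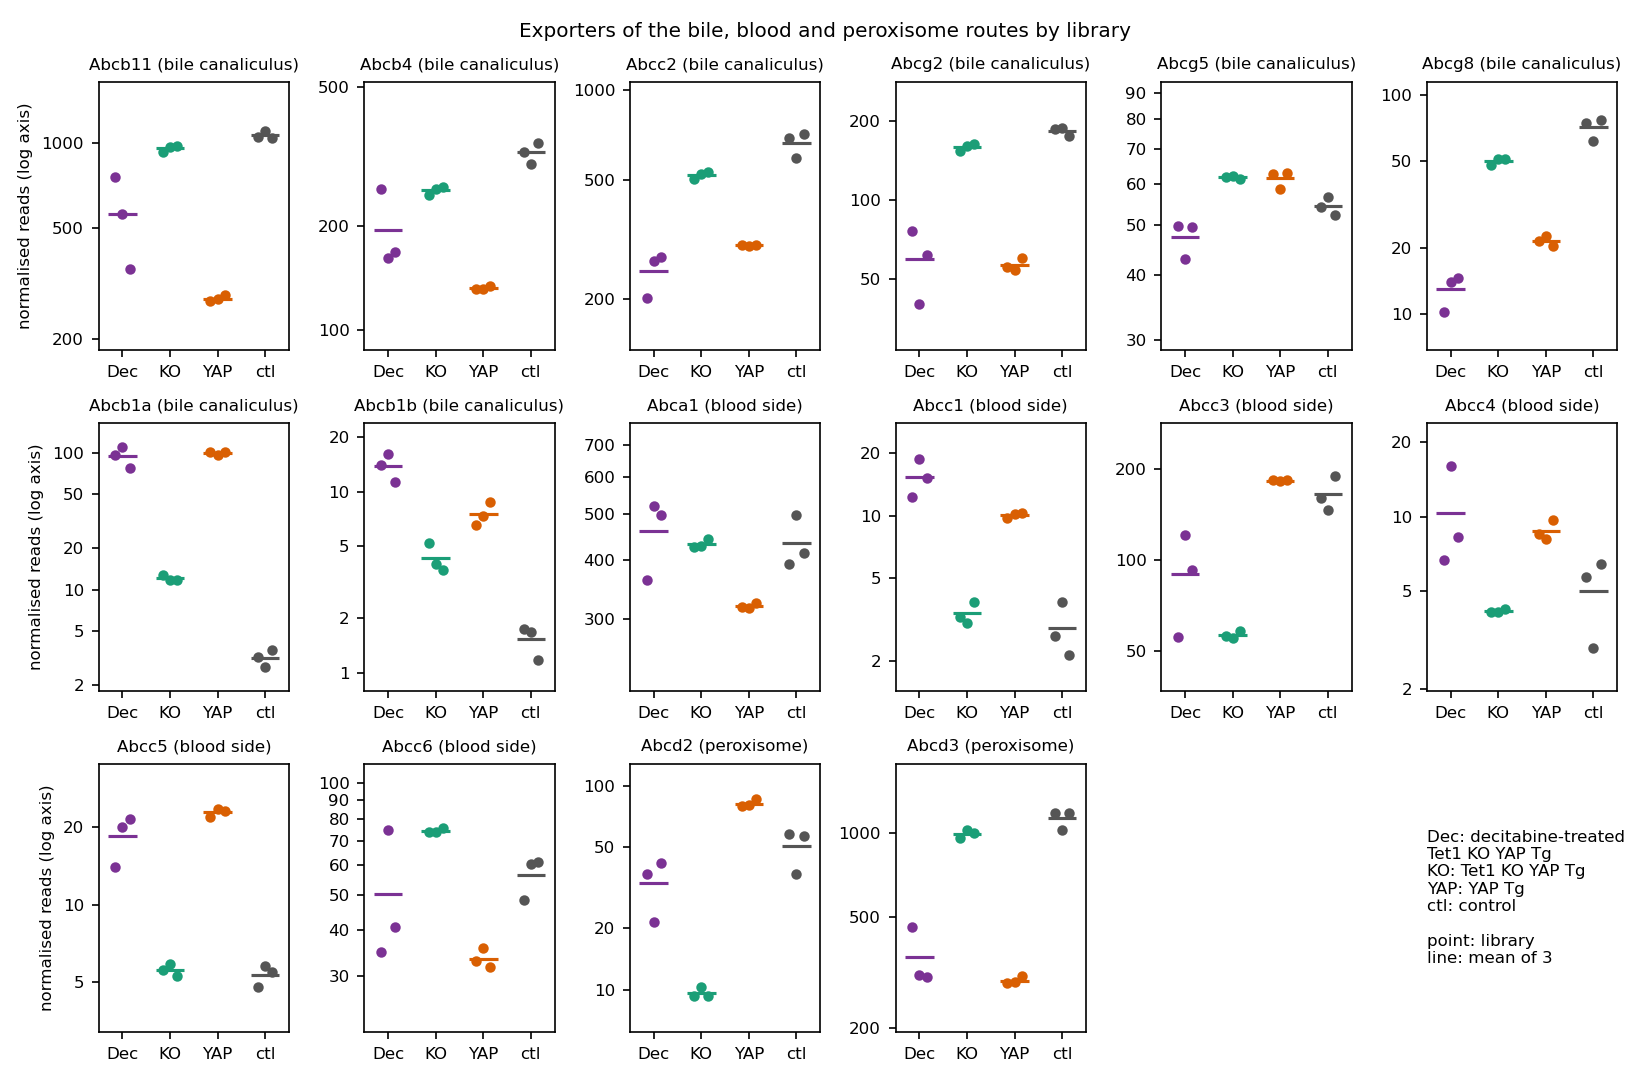
Normalised reads (log axis) of 16 bile-facing, blood-side and peroxisomal members in every library, with groups from left to right decitabine, Tet1 KO YAP Tg, YAP Tg and control livers; points are libraries and lines are group means. Abcb11, Abcc2, Abcg2, Abcg8 and Abcd3 dip in YAP Tg livers, whereas Abcb1a, Abcc1, Abcc5 and Abcd2 are higher there than in Tet1 KO YAP Tg livers.

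The blood-side route had no common direction. Of its 6 members, 3 were higher, 2 lower and 1 was not called in YAP Tg against control livers (median 0.48), and 2 were higher and 4 lower in Tet1 KO YAP Tg livers against YAP Tg livers (median -1.22). In Tet1 KO YAP Tg against control livers 1 was higher, 1 lower and 4 were not called (median 0.03), and in decitabine against untreated livers 4 were higher, 1 lower and 1 was not called (median 0.86). Over all genes tested, the shares higher and lower were 36.1% and 34.5%, 33.4% and 34.0%, 20.2% and 18.8%, and 32.8% and 27.9% in these comparisons, in the same order. With near-identical libraries added together, Abcc1 and Abcc5 held their calls in YAP Tg against control and in decitabine against untreated livers, and Abcc5 alone held in Tet1 KO YAP Tg livers against YAP Tg livers. The other calls of the route in these 3 comparisons were lost, with adjusted p-values from 0.0698 (Abcc3 in Tet1 KO YAP Tg livers against YAP Tg livers) to 0.553 (Abca1 in the same comparison).

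Abcc5, a pump for cyclic nucleotides and folates (chromosome 16, 20331304 to 20426394, minus strand), had 14, 20 and 21.4 normalised reads in decitabine livers and 5.59, 5.9 and 5.28 in Tet1 KO YAP Tg livers. The values were 21.8, 23.5 and 23 in YAP Tg livers and 4.79, 5.78 and 5.46 in control livers. YAP Tg values were the highest, decitabine values came next, and the values of the other groups overlapped at about 5. The change was 1.99 (SE 0.091, adjusted p = 2.21e-09) in YAP Tg against control livers, -1.93 (SE 0.091, adjusted p = 3.57e-09) in Tet1 KO YAP Tg livers against YAP Tg livers and 1.62 (SE 0.15, adjusted p = 7.17e-07) in decitabine against untreated livers. Abcc1, the first multidrug resistance-associated protein, which exports glutathione conjugates and leukotriene C4 (chromosome 16, 14361558 to 14474878, plus strand), had 12.3, 18.8 and 15.2 normalised reads in decitabine livers and 3.26, 3.04 and 3.84 in Tet1 KO YAP Tg livers. It had 9.72, 10.2 and 10.4 in YAP Tg livers and 2.63, 3.83 and 2.14 in control livers. It was highest in decitabine livers and next highest in YAP Tg livers, while Tet1 KO YAP Tg and control values overlapped. Its log2 fold change was 1.69 (SE 0.16, adjusted p = 1.72e-06) in YAP Tg against control livers, -1.45 (SE 0.16, adjusted p = 7.45e-06) in Tet1 KO YAP Tg livers against YAP Tg livers and 2.02 (SE 0.19, adjusted p = 9.71e-07) in decitabine against untreated livers. Abcc1 was not called in Tet1 KO YAP Tg against control livers (0.23 (SE 0.16, adjusted p = 0.282)), but it was higher without control library 2 (log2 0.43, adjusted p = 0.00771). Macrophages also express Abcc1, and the macrophage sums given above were high in the same groups; their part was not tested.

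Abcc3, a basolateral exporter of glucuronides and bile salts (chromosome 11, 94343295 to 94392976, minus strand), had 55.7, 121 and 92.4 normalised reads in decitabine livers and 56.2, 55.2 and 58.4 in Tet1 KO YAP Tg livers. There were 183, 182 and 183 in YAP Tg livers, against 160.3, 146 and 189 in control livers. Tet1 KO YAP Tg livers stood lowest and clear of YAP Tg and control livers, whose ranges overlapped, and decitabine library 1 fell among the untreated values. Abcc3 was lower in Tet1 KO YAP Tg livers than in YAP Tg livers (-1.68 (SE 0.079, adjusted p = 3.32e-09)) and than in control livers (-1.53 (SE 0.079, adjusted p = 6.45e-08)), and was not called in YAP Tg against control livers (0.15 (SE 0.079, adjusted p = 0.105)). Without control library 3 that last difference was called (log2 0.25, adjusted p = 0.0027), as it was with upper-quartile scaling (log2 0.23, adjusted p = 0.0123). The decitabine difference of 0.59 (SE 0.21, adjusted p = 0.0249) was lost in 4 of the 6 fits that left out a library, with a log2 fold change of 0.34 (adjusted p = 0.0936) without decitabine library 2. Abcc4, an exporter of bile salts, nucleotides and prostaglandins (chromosome 14, 118482692 to 118706219, minus strand), had 6.64, 16 and 8.26 normalised reads in decitabine livers and 4.11, 4.09 and 4.21 in Tet1 KO YAP Tg livers. YAP Tg livers had 8.5, 8.11 and 9.73, and control livers had 5.67, 2.94 and 6.41. It was highest in YAP Tg and decitabine livers, and control library 2 lay below the other controls. Abcc4 changed by 0.81 (SE 0.21, adjusted p = 0.00414) in YAP Tg against control livers, -0.997 (SE 0.21, adjusted p = 0.00115) in Tet1 KO YAP Tg livers against YAP Tg livers and 1.13 (SE 0.29, adjusted p = 0.00476) in decitabine against untreated livers. Against control livers its Tet1 KO YAP Tg level was not called (-0.18 (SE 0.21, adjusted p = 0.513)), but without control library 2 it was lower (log2 -0.49, adjusted p = 0.00103).

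Abcc6, which releases ATP from hepatocytes and whose loss causes ectopic calcification (chromosome 7, 45976380 to 46030286, minus strand), had 34.9, 74.7 and 40.9 normalised reads in decitabine livers and 73.7, 73.9 and 75.5 in Tet1 KO YAP Tg livers. The values were 33, 35.8 and 31.7 in YAP Tg livers and 48.5, 60.3 and 61.1 in control livers. The lowest values were those of YAP Tg livers, where decitabine library 1 also fell, and Tet1 KO YAP Tg livers were above the controls. It changed by -0.74 (SE 0.085, adjusted p = 8.25e-06) in YAP Tg against control livers and by 1.14 (SE 0.085, adjusted p = 2.06e-07) in Tet1 KO YAP Tg livers against YAP Tg livers. The decitabine values overlapped the untreated ones (-0.64 (SE 0.21, adjusted p = 0.0181)), and the call was lost on the TPM scale (log2 -0.27) and without decitabine library 1 (log2 -0.42, adjusted p = 0.0667) or library 3 (log2 -0.54, adjusted p = 0.0722). Abca1, which loads cholesterol onto apolipoprotein A-I to form high-density lipoprotein (chromosome 4, 53030789 to 53159895, minus strand), had 363, 521 and 498 normalised reads in decitabine livers and 426, 428 and 443 in Tet1 KO YAP Tg livers. It had 318, 316 and 324 in YAP Tg livers and 392, 499 and 414 in control livers. YAP Tg livers were lowest, and the other 3 groups overlapped. Abca1 changed by -0.44 (SE 0.075, adjusted p = 2.50e-04) in YAP Tg against control livers and by 0.44 (SE 0.075, adjusted p = 2.72e-04) in Tet1 KO YAP Tg livers against YAP Tg livers. It was not called in Tet1 KO YAP Tg against control livers (0.0011 (SE 0.075, adjusted p = 0.992)) and was higher without control library 2 (log2 0.10, adjusted p = 0.0184). In decitabine against untreated livers it was not called either (0.073 (SE 0.13, adjusted p = 0.654)), but it was higher without decitabine library 1 (log2 0.24, adjusted p = 0.0387) and on the TPM scale (log2 0.44, adjusted p = 0.0298).

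The peroxisomal route was split between its members. Abcd3, the peroxisomal transporter of branched-chain and dicarboxylic acyl-CoA and of bile acid precursors (chromosome 3, 121758910 to 121815215, minus strand), had 462, 309.9 and 306 normalised reads in decitabine livers and 958, 1025 and 1001 in Tet1 KO YAP Tg livers. There were 289, 291 and 307 in YAP Tg livers, against 1187, 1024 and 1187 in control livers. YAP Tg and decitabine livers were low, and Tet1 KO YAP Tg and control livers were high and overlapped by control library 2. The change was -1.93 (SE 0.063, adjusted p = 1.06e-10) in YAP Tg against control livers, 1.75 (SE 0.063, adjusted p = 3.27e-10) in Tet1 KO YAP Tg livers against YAP Tg livers and -1.50 (SE 0.14, adjusted p = 1.07e-06) in decitabine against untreated livers. Against control livers, Tet1 KO YAP Tg livers differed by -0.18 (SE 0.063, adjusted p = 0.037), a call kept in only 1 of the 6 fits that left out a library.

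Abcd2, a transporter of very-long-chain and polyunsaturated acyl-CoA (chromosome 15, 91145871 to 91191807, minus strand), had 37.1, 21.4 and 41.8 normalised reads in decitabine livers and 9.3, 10.3 and 9.28 in Tet1 KO YAP Tg livers. YAP Tg livers had 79.6, 80 and 85.6, and control livers had 58.1, 36.9 and 56.6. Tet1 KO YAP Tg livers were the lowest group, without overlap, and YAP Tg livers the highest, while decitabine and control libraries overlapped. It was lower in Tet1 KO YAP Tg livers than in YAP Tg livers by a log2 fold change of -3.02 (SE 0.14, adjusted p = 2.85e-09), the largest fall of the family in that comparison. Against control livers the fall was -2.31 (SE 0.14, adjusted p = 2.60e-07), again the largest of the family. Abcd2 was higher in YAP Tg than in control livers (0.72 (SE 0.14, adjusted p = 6.17e-04)) and in decitabine than in untreated livers (1.69 (SE 0.22, adjusted p = 1.94e-05)). With near-identical libraries added together, the Abcd2 call was lost in YAP Tg against control livers (adjusted p = 0.237) and in Tet1 KO YAP Tg against control livers (adjusted p = 0.126) and held in the other comparisons. Abcd3 then held its call in each comparison but Tet1 KO YAP Tg against control livers.

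**Figure D3:**
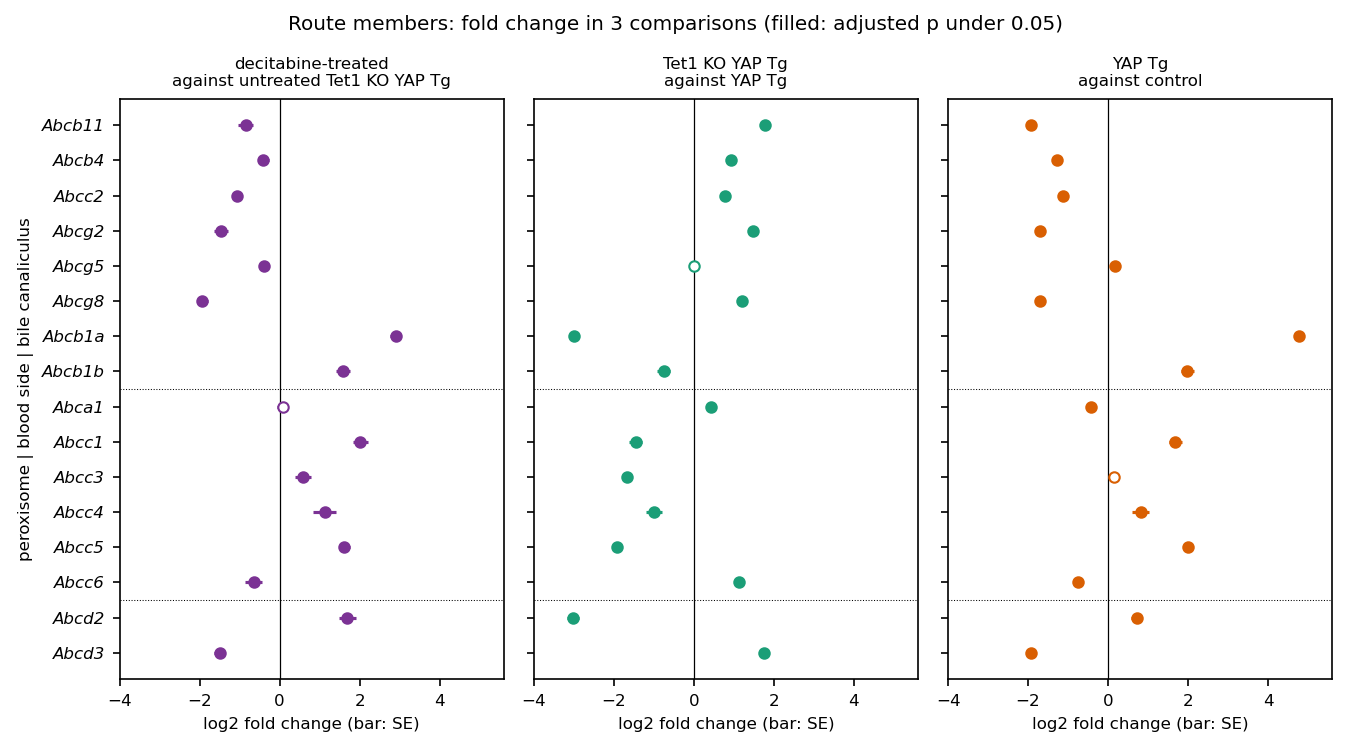
Log2 fold change with its standard error for 16 members of the bile, blood and peroxisome routes (rows) in decitabine against untreated Tet1 KO YAP Tg, Tet1 KO YAP Tg livers against YAP Tg livers, and YAP Tg against control livers (panels); filled points had an adjusted p under 0.05. The bile-facing pumps except Abcb1a, Abcb1b and Abcg5 lie left of 0 in YAP Tg livers, with Abcb11 at -1.93, and right of 0 in Tet1 KO YAP Tg livers against YAP Tg livers.

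Levels of different genes were compared per kilobase, with the lengths recovered from the deposited TPM values. In simulated data 6.21% of such lengths were wrong by a factor of 2, so the order of genes that lie within 2-fold of each other is uncertain. On this scale Abcd3 and Abcb11 were the most abundant members in control livers, at 333 and 218 normalised reads per kilobase, followed by Abcc2 at 124, Abca6 at 96.3, Abcb4 at 79.8 and Abcg2 at 73.9. In YAP Tg livers Abcd3 stood at 87, Abca6 at 63.2, Abcb11 at 57 and Abcc2 at 56.2. The summed level of the bile-facing route was 279 ± 50.4 in decitabine livers, 463 ± 11.3 in Tet1 KO YAP Tg livers, 223 ± 4.14 in YAP Tg livers and 539 ± 9.1 in control livers, in normalised reads per kilobase (SD, n = 3). The blood-side sum stayed in a narrow range, with 80.3 ± 20.2 in decitabine livers, 70.7 ± 1.44 in Tet1 KO YAP Tg livers, 81.2 ± 0.422 in YAP Tg livers and 89 ± 5.95 in control livers. The peroxisomal sum, most of which was Abcd3, was 117 ± 24.3 in decitabine livers, 298 ± 9.69 in Tet1 KO YAP Tg livers, 106 ± 3.54 in YAP Tg livers and 345 ± 29.8 in control livers. The sums weight each gene by its abundance, so the rises of Abcb1a, Abcc5 and Abcd2 hardly show in them.

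**Figure D4:**
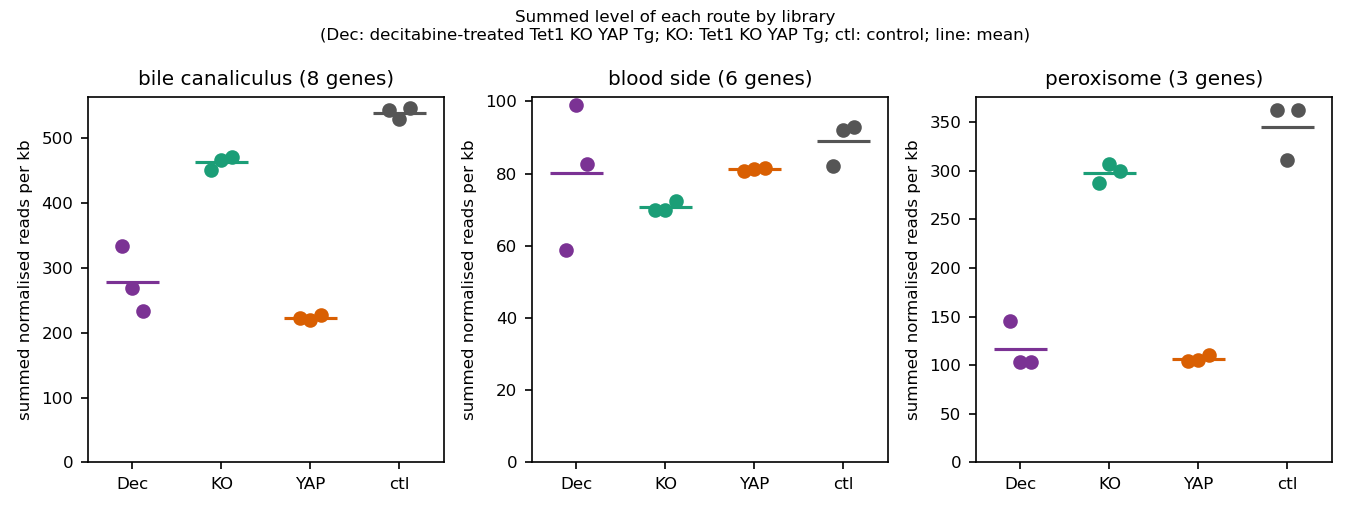
Summed level of the bile-facing (8 genes), blood-side (6 genes) and peroxisomal (3 genes) members per library, in normalised reads per kilobase, with groups from left to right decitabine, Tet1 KO YAP Tg, YAP Tg and control livers; points are libraries and lines are means (n = 3). The bile-facing sum of YAP Tg livers, 223 ± 4.14, is below that of control livers, 539 ± 9.1, whereas the blood-side sums of these groups are 81.2 ± 0.422 and 89 ± 5.95.

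The upstream sequences of 4 members are shown because CpG, the base step at which TET1 and the DNA methyltransferases act, is dense in some members that moved and sparse in others; methylation was not measured in the values used here. Each is the stretch of 250 bases before the RefSeq start (GRCm38.p6, mm10), printed 5′ to 3′ on the strand of the gene, with every CG in capitals. Abcb11 (chr2:69342617-69342866, minus strand) and Abcd3 (chr3:121815303-121815552, minus strand) were lower in YAP Tg than in control livers and hold 4 and 34 CpG. Abcb1b (chr5:8797897-8798146, plus strand) and Abcc5 (chr16:20426395-20426644, minus strand) were higher and hold 9 and 17.
Abcb11: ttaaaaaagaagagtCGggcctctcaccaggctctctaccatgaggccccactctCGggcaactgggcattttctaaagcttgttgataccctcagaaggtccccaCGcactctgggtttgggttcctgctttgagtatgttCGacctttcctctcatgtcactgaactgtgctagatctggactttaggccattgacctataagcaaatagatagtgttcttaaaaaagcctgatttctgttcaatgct
Abcd3: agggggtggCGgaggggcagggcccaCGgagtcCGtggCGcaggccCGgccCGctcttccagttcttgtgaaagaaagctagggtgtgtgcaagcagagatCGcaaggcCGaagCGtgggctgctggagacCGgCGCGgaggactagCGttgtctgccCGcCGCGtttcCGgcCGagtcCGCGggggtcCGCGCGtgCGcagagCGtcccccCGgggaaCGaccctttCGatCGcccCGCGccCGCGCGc
Abcb1b: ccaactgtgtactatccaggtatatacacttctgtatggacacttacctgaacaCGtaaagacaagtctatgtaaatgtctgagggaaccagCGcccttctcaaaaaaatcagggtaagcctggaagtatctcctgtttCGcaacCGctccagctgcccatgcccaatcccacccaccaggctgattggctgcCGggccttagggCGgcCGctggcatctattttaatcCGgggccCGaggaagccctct
Abcc5: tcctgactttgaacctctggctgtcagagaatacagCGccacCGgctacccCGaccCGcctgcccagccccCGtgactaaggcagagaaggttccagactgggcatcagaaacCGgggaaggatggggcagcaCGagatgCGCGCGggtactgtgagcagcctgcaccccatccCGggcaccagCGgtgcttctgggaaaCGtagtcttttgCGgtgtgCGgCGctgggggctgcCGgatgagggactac
A RefSeq window was found for 34 members, and for 30 of them its start lay within 100 bases of the deposited gene start. These 30 windows held a median of 14 CpG, against 6 over all 32851 windows, whose quartiles were 2 and 16. The 9 of them that were higher in YAP Tg than in control livers held a median of 9 CpG and 2 to 35, and the 17 that were lower held a median of 17 and 1 to 34, so the ranges coincide. GGAATG on either strand was in 5 of the 30 windows, against 12.6% of all windows, and the nuclear receptor motif AGGTCA was in 3, against 14% of all windows.

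Subfamily A held the largest fall of the family in YAP Tg against control livers. Abca8a, a lipid transporter of the Abca6-like group (chromosome 11, 110025634 to 110095937, minus strand), had 60.3, 29.3 and 25.6 normalised reads in decitabine livers and 144, 149 and 145 in Tet1 KO YAP Tg livers. The values were 33.7, 34.4 and 37.6 in YAP Tg livers and 299, 375 and 305 in control livers. Decitabine and YAP Tg livers overlapped at the low end, Tet1 KO YAP Tg livers stood between, and controls were highest. Its log2 fold change was -3.19 (SE 0.081, adjusted p = 1.18e-11) in YAP Tg against control livers, 2.04 (SE 0.081, adjusted p = 7.78e-10) in Tet1 KO YAP Tg livers against YAP Tg livers, -1.15 (SE 0.081, adjusted p = 9.51e-07) in Tet1 KO YAP Tg against control livers and -2.02 (SE 0.23, adjusted p = 7.20e-06) in decitabine against untreated livers. The neighbouring Abca8b had 117, 97.8 and 63.5 normalised reads in decitabine livers and 74.8, 76.9 and 83.2 in Tet1 KO YAP Tg livers. It had 61.9, 60 and 63.4 in YAP Tg livers and 183, 186 and 186 in control livers. Controls were clear of the other 3 groups, and it differed by -1.24 (SE 0.053, adjusted p = 1.43e-08) in Tet1 KO YAP Tg against control livers and by -1.58 (SE 0.053, adjusted p = 1.37e-10) in YAP Tg against control livers. With near-identical libraries added together, the calls of both genes held in YAP Tg against control livers and were lost in Tet1 KO YAP Tg against control livers, and that of Abca8a was lost in Tet1 KO YAP Tg livers against YAP Tg livers (adjusted p = 0.0558).

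Abca8b, Abca8a, Abca9, Abca6 and Abca5 stand side by side on the minus strand of chromosome 11, with no other gene of the table between them, and they did not move as 1 block. Abca9 had 58.5, 64.9 and 70.4 normalised reads in decitabine livers and 14.3, 14 and 12.8 in Tet1 KO YAP Tg livers. There were 27.8, 27.5 and 30 in YAP Tg livers, against 12.3, 14.2 and 13.1 in control livers. It was highest in decitabine livers and next in YAP Tg livers, with the other groups overlapping, and changed by 1.08 (SE 0.079, adjusted p = 1.41e-07) in YAP Tg against control livers, -1.02 (SE 0.079, adjusted p = 2.72e-07) in Tet1 KO YAP Tg livers against YAP Tg livers and 2.19 (SE 0.10, adjusted p = 1.22e-09) in decitabine against untreated livers. Abca5, a lysosomal lipid transporter, was also higher in YAP Tg than in control livers (1.62 (SE 0.11, adjusted p = 5.06e-08)), and Abca6 was lower (-0.60 (SE 0.062, adjusted p = 2.87e-06)). In YAP Tg against control livers this row thus had 2 members higher (background 36.1%) and 3 lower (background 34.5%). In Tet1 KO YAP Tg livers against YAP Tg livers 3 were higher (background 33.4%) and 2 lower (background 34.0%). The order along the chromosome did not sort the directions, since Abca6 lies between Abca9 and Abca5. With near-identical libraries added together, the Abca9 call in Tet1 KO YAP Tg livers against YAP Tg livers and the Abca6 call in YAP Tg against control livers were lost.

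**Figure D5:**
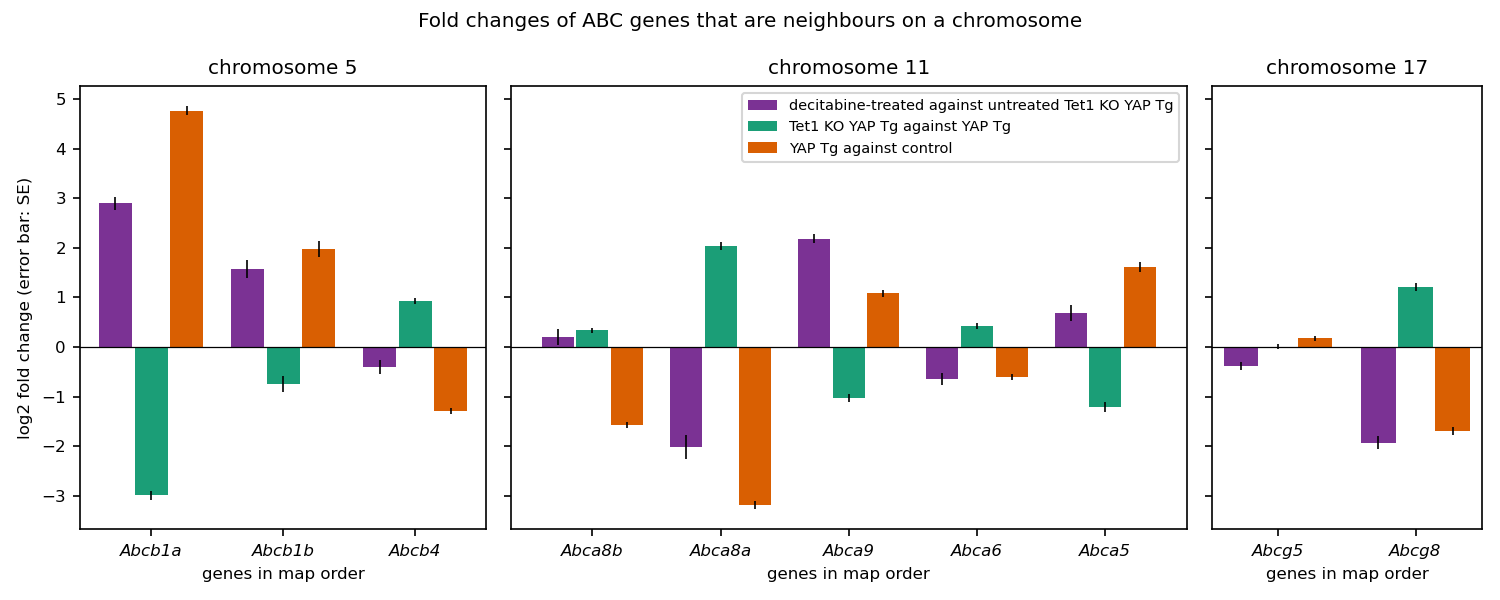
Log2 fold change (bars, with the standard error as error bars) of members that stand side by side on chromosomes 5, 11 and 17, in map order along the horizontal axis, in decitabine against untreated Tet1 KO YAP Tg, Tet1 KO YAP Tg livers against YAP Tg livers, and YAP Tg against control livers. In YAP Tg against control livers Abcb4 (-1.29) lies below 0 beside Abcb1a (4.77) and Abcb1b, and Abca8a (-3.19) beside Abca9 (1.08).

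Abca3, the lamellar body phospholipid transporter of lung surfactant, had 22.7, 137 and 33.7 normalised reads in decitabine livers and 121, 116 and 126 in Tet1 KO YAP Tg livers. YAP Tg livers had 41.7, 44.8 and 41.6, and control livers had 56.2, 52.4 and 64.2. Tet1 KO YAP Tg livers were above YAP Tg and control livers, and decitabine library 2 lay far above the other decitabine libraries, beyond the untreated ones. Abca3 changed by 1.49 (SE 0.074, adjusted p = 5.33e-09) in Tet1 KO YAP Tg livers against YAP Tg livers and by 1.07 (SE 0.074, adjusted p = 7.97e-07) in Tet1 KO YAP Tg against control livers. Its decitabine difference of -1.35 (SE 0.45, adjusted p = 0.0195) was called in 3 of the 6 fits that left out a library and was -2.11 without decitabine library 2. No Abca3 call held with near-identical libraries added together. Abca2, a lysosomal lipid transporter, had 23.2, 42.2 and 25.1 normalised reads in decitabine livers and 45.4, 45.1 and 48.3 in Tet1 KO YAP Tg livers. The values were 15.1, 14.2 and 13.5 in YAP Tg livers and 36, 35.6 and 37.5 in control livers. It was lowest in YAP Tg livers and changed by -1.33 (SE 0.064, adjusted p = 3.53e-09) against control livers, and by 1.67 (SE 0.064, adjusted p = 5.70e-10) in Tet1 KO YAP Tg livers against YAP Tg livers. Abca4, known as a retinoid transporter of photoreceptors, reached 2.12, 2.68 and 1.79 in YAP Tg livers, against 0.175, 0.311 and 0.237 in control livers, a low level in all libraries. No test is given for Abca4, since among the 9 libraries without decitabine only the YAP Tg values carried it past the filter.

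In subfamily G, Abcg3, which is related to Abcg2 and found in rodents, had 86.4, 55.8 and 58.9 normalised reads in decitabine livers and 7.91, 8.49 and 8 in Tet1 KO YAP Tg livers. It had 34.8, 33.6 and 36.1 in YAP Tg livers and 8.01, 8.05 and 8.61 in control livers. Decitabine livers were highest, YAP Tg livers next, and Tet1 KO YAP Tg and control values overlapped at about 8. It changed by 2.02 (SE 0.073, adjusted p = 2.58e-10) in YAP Tg against control livers, -2.03 (SE 0.073, adjusted p = 3.05e-10) in Tet1 KO YAP Tg livers against YAP Tg livers and 2.94 (SE 0.14, adjusted p = 1.70e-09) in decitabine against untreated livers, the largest decitabine rise of the family. For Abcg3, Abca9 and Abcc6 the recovered length was doubled because it was shorter than the minimum set here for its kind of transporter, and their decitabine levels and folds rest on that step. Abcg1, a cholesterol exporter to high-density lipoprotein that macrophages express strongly, had 21.6, 34.9 and 31.1 normalised reads in decitabine livers and 11.7, 11.9 and 12.8 in Tet1 KO YAP Tg livers. There were 46.7, 43.6 and 46.6 in YAP Tg livers, against 14.3, 14.9 and 13 in control livers. It was highest in YAP Tg livers and changed by 1.67 (SE 0.073, adjusted p = 1.59e-09) in YAP Tg against control livers, -1.87 (SE 0.073, adjusted p = 7.20e-10) in Tet1 KO YAP Tg livers against YAP Tg livers and 1.21 (SE 0.15, adjusted p = 1.11e-05) in decitabine against untreated livers. The macrophage sums were high in the same groups, and their part in the Abcg1 difference was not tested.

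Of the 4 mitochondrial members of the family, among them Abcb6, Abcb8 and Abcb10, 3 were lower in YAP Tg than in control livers (background 34.5%) and 4 were higher in Tet1 KO YAP Tg than in YAP Tg livers (background 33.4%). Abcb10 is an inner membrane transporter that serves haem synthesis. Abcb10 had 9.73, 9.68 and 9.46 normalised reads in decitabine livers and 36.2, 37.4 and 41 in Tet1 KO YAP Tg livers. YAP Tg livers had 13.4, 12.9 and 14.2, and control livers had 33.5, 36 and 31.5. The decitabine and YAP Tg values were low without overlap, and the untreated and control values were high. Its log2 fold change was -1.29 (SE 0.075, adjusted p = 1.85e-08) in YAP Tg against control livers, 1.47 (SE 0.075, adjusted p = 6.90e-09) in Tet1 KO YAP Tg livers against YAP Tg livers and -1.93 (SE 0.094, adjusted p = 2.07e-09) in decitabine against untreated livers. The recovered length of Abcb10, 2153 bases, may be short by a factor of 2, in which case the decitabine mean would be 19.2 and the log2 fold change -0.97. The erythroid markers given above, of cells that also make haem, had the same directions as Abcb10 in these 3 comparisons; their summed level was 61 to 124 normalised reads in decitabine livers, 261 to 282 in Tet1 KO YAP Tg livers, 56.9 to 65.2 in YAP Tg livers and 254 to 433 in control livers. Their part in the Abcb10 result was not tested. Abcb8 was called higher in Tet1 KO YAP Tg livers, with 18.9, 18.7 and 17 against 11.7, 13.9 and 12.6 in control livers (0.50 (SE 0.089, adjusted p = 0.00114)). Abcb6, a porphyrin transporter, was lower in decitabine than in untreated livers, with a log2 fold change of -0.40 (adjusted p = 0.00444), a call lost with near-identical libraries added together.

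The 4 members of subfamilies E and F lack membrane domains and act in ribosome recycling and translation. All 4 were lower in YAP Tg than in control livers (background 34.5%), by small steps from -0.74 for Abce1 to -0.30 for Abcf1. In Tet1 KO YAP Tg livers 3 of 4 were higher than in YAP Tg livers (background 33.4%). The Abcf1 call in YAP Tg against control livers was kept in 1 of the 6 fits that left out a library. In decitabine against untreated livers Abcf1 was lower (-0.45 (SE 0.15, adjusted p = 0.0207), called in 3 of those 6 fits) and the other 3 were not called. Over all genes tested, 27.9% were lower there. Among the remaining members, Abcd4, a lysosomal cobalamin transporter, had 6.48, 6.13 and 6.45 in Tet1 KO YAP Tg livers, against 2.98, 4.18 and 4.87 in control livers (0.63 (SE 0.14, adjusted p = 0.0049)). Abcc12, of unsettled function, had 0.0447, 0.0454 and 0 in Tet1 KO YAP Tg livers, 1.48, 1.24 and 1.6 in YAP Tg livers and 0.409, 0.489 and 0.534 in control livers, very low levels throughout, and no test is given because the YAP Tg values carried it past the filter. Abca7, a phospholipid transporter, was higher in YAP Tg than in control livers by 0.37 (SE 0.13, adjusted p = 0.0189), a call lost in 2 of 6 fits that left out a library, and Abcc9, a subunit of ATP-sensitive potassium channels, was lower by -0.34 (SE 0.063, adjusted p = 3.97e-04). Abcb9, a lysosomal peptide transporter, and Abcc10 were not called in any of the 4 comparisons with all libraries. In the setting with near-identical libraries added together, none of the calls of subfamilies E and F, Abcd4, Abca7 and Abcc9 held.

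The 5 members not tested were Abca13, Abca14, Abca17, Abcc8 and Abcg4. Abca13 had 4, 2 and 13 reads in decitabine livers, 0 in each Tet1 KO YAP Tg library, 10, 4 and 6 in YAP Tg livers and 0 in each control library. Over the 3 libraries of a group, Abca14 had 17 reads in decitabine livers, 13 in Tet1 KO YAP Tg livers, 49 in YAP Tg livers and 18 in control livers. Abca17, Abcc8, a subunit of the pancreatic ATP-sensitive potassium channel, and Abcg4 had 0 to 6 reads per group, too few for any comparison.

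In YAP Tg against control livers, where 36.1% of all genes were higher and 34.5% lower, higher and lower calls by subfamily numbered 4 and 6 in A, 2 and 5 in B, 4 and 3 in C, 2 and 1 in D and 3 and 2 in G. In Tet1 KO YAP Tg livers against YAP Tg livers, where 33.4% of all genes were higher and 34.0% lower, they were 6 and 3 in A, 6 and 2 in B, 3 and 5 in C, 2 and 2 in D and 2 and 2 in G. The median of subfamily B was -0.85 in the first of these comparisons and 0.83 in the second, and that of C was 0.28 and -0.997. The decitabine medians were -0.40 for B and 0.59 for C. Of the 9 members of B, 4 belong to the bile-facing route described above. Whether subfamilies differ was not tested, and most of these counts are too small to be set apart from the shares over all genes.

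Genes that work beside the pumps were counted in lists chosen by function. Their recovered lengths were not checked against a minimum, so the decitabine values of some may be too low by a factor of 2. Beside them stand the shares over all genes tested, which were 36.1% higher and 34.5% lower in YAP Tg than in control livers, 33.4% higher and 34.0% lower in Tet1 KO YAP Tg than in YAP Tg livers, and 32.8% higher and 27.9% lower in decitabine than in untreated livers. Of 8 tested carriers on the blood side, 7 of them uptake carriers and 1, Slc51b, a subunit of a bile acid exporter, 6 were lower and 2 higher in YAP Tg than in control livers (median -3.57), and 6 were higher and 2 lower in Tet1 KO YAP Tg than in YAP Tg livers (median 3.29). Slc10a1, the sodium-dependent bile salt importer, had 68.2, 34 and 15.8 normalised reads in decitabine livers and 449.7, 458 and 461 in Tet1 KO YAP Tg livers. The values were 14.7, 15.7 and 16.1 in YAP Tg livers and 442, 529 and 496 in control livers. YAP Tg and decitabine livers were low and untreated and control livers high, with no overlap between those pairs, and the change was -4.93 (SE 0.066, adjusted p = 4.96e-14) in YAP Tg against control livers and -3.76 (SE 0.35, adjusted p = 8.90e-07) in decitabine against untreated livers. Slco1a4, another organic anion carrier, was higher in YAP Tg than in control livers (2.85 (SE 0.11, adjusted p = 6.18e-10)). Slc51b was the other carrier higher there, at 3.06, 2.75 and 2.44 in YAP Tg livers, against 0.526, 0.756 and 0.534 in control livers, and its partner subunit Slc51a had 1 read over all 12 libraries and was not tested. Of the 8 carriers, 7 were lower and 1 was higher in decitabine than in untreated livers (median -2.34). Slc51b is among the 7, with 1.7, 0.647 and 0.454 in decitabine livers, against 1.52, 1.77 and 1.81 in Tet1 KO YAP Tg livers. Its recovered length, 244 bases, may be short by a factor of 2, in which case its decitabine fall would be smaller or absent. The decitabine count of this list is therefore uncertain.

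Of 11 bile acid synthesis genes, 8 were lower and 3 higher in YAP Tg than in control livers (median -1.44), 9 were higher and 1 lower in Tet1 KO YAP Tg than in YAP Tg livers (median 1.51), and 8 were lower in decitabine than in untreated livers (median -1.36). The recovered lengths of Cyp8b1 (975 bases) and Cyp27a1 (945 bases) may be short by a factor of 2, which would make their decitabine falls smaller. The decitabine count and median of this list are therefore uncertain. Cyp7b1, an oxysterol hydroxylase of the alternative pathway, changed by -5.85 (SE 0.20, adjusted p = 1.33e-10) in YAP Tg against control livers. Of 14 genes of peroxisomal import and beta-oxidation, 13 were lower in YAP Tg than in control livers (median -1.37), 12 were higher in Tet1 KO YAP Tg than in YAP Tg livers (median 0.99), and 12 were lower in decitabine than in untreated livers (median -1.21). The recovered lengths of Pex11a (293 bases) and Pex14 (971 bases) may likewise be short by a factor of 2, which would make their decitabine falls smaller. The decitabine count and median of the peroxisomal list are uncertain for that reason. In YAP Tg against control livers Abcd3 was lower, like most of this list, and Abcd2 was higher.

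Of 16 regulators of transporter genes, 12 were lower and 4 higher in YAP Tg than in control livers (median -0.53), and 12 were higher and 2 lower in Tet1 KO YAP Tg than in YAP Tg livers (median 0.55). Nr1i3, the constitutive androstane receptor, changed by -4.82 (SE 0.11, adjusted p = 6.01e-12) in YAP Tg against control livers and by -3.86 (SE 0.15, adjusted p = 2.78e-10) in decitabine against untreated livers. The recovered length of Nr1i3, 707 bases, may be short by a factor of 2, in which case its decitabine fall would be smaller. Nr0b2, the bile acid-induced repressor SHP, changed by -3.31 (SE 0.19, adjusted p = 1.54e-08) in YAP Tg against control livers and by 3.90 (SE 0.19, adjusted p = 4.39e-09) in Tet1 KO YAP Tg livers against YAP Tg livers. Of 10 other canalicular membrane genes, 6 were lower and 3 higher in YAP Tg than in control livers (median -0.66), among them Aqp8, a water channel (-3.37 (SE 0.09, adjusted p = 1.79e-11)), and Ezr, a cytoskeletal linker (2.57 (SE 0.08, adjusted p = 7.00e-11)). Of 10 cholesterol handling genes, 3 were higher, 4 lower and 3 not called in YAP Tg against control livers (median -0.04), close to the shares over all genes. Of Tap1, Tap2 and Cftr, the family members under other symbols, 1 was lower and 2 were not called in that comparison.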

How the data were processed

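Liver RNA was sequenced from 12 of the 36 samples of the series, 3 per group; the other 24 samples (DNA methylation capture and chromatin immunoprecipitation) were not analysed here. TopHat2, featureCounts, edgeR and mm10 are named, without versions, in the submitters' processing notes. For the 9 libraries without decitabine the authors deposited a signal per gene that behaves as reads scaled to library size and to composition (TMM); in those columns 100% of values came out as whole reads, within 0.02 of a read. For the 3 decitabine libraries the authors deposited TPM values, and 1 deposited column gives their log2 fold change of decitabine over untreated livers.

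Gene lengths and decitabine reads were recovered from the TPM values as the smallest whole numbers that fit all 3 libraries, for 17105 of 17105 genes with a value. In simulated data with known answers on 2995 genes, 92.3% of lengths came out exact and 6.21% were wrong by a factor of 2. Lengths of ABC members under 3600 bases, or 1600 for subfamilies and members that work as dimers, were doubled, which applied to Abca9, Abca17, Abcg3 and Abcc6. Lengths of genes outside the family were not checked in this way. The decitabine reads were then scaled with the other libraries (TMM) to normalised reads.

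Library totals of 19082417 to 31727266 reads set the counting precision. Within the YAP Tg and Tet1 KO YAP Tg groups chi-square per gene was 1.44 to 3.75, where counting error alone gives about 1. Counting error was thus most of the spread only between YAP Tg libraries 1 and 2 (1.44). In the other pairs of these groups chi-square per gene was 2.32 or more. The tests used limma 3.58.1 (R 4.3.3) on log2(normalised reads + 0.5), with genes kept at 0.5 or more in at least 3 libraries. The 9 libraries without decitabine gave 13730 tested genes, and all 12 libraries gave 13948 for the decitabine comparison. P-values were two-sided and adjusted by Benjamini-Hochberg over all genes tested. The limma step was tested on simulated data. edgeR 4.0.16 (quasi-likelihood) and DESeq2 1.42.0 on the recovered reads were alternatives, and edgeR called 15 higher and 21 lower members in YAP Tg against control livers. Other alternatives changed the pseudocount, the filter, the scaling, the libraries used and the replicate block. Coordinates are the deposited ones (mm10, first base counted as 1). Upstream sequences are from RefSeq (GRCm38.p6).

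Members are all matching gene names. Single values of 2 tested members are not reported here, though both enter the counts and sums. Values per library are given for the other route members and for the 5 largest called rises and falls of the family in each comparison. For functional lists up to 4 of the largest called changes were eligible to be named. Abca5, Abca6, Abca7, Abcb6, Abcc9, Abcg1, Abce1 and Abcf1 were given values after these had been seen. The members and lists were chosen with earlier results of these data known. Replicates of each group were compared by a chi-square test of their reads, and every pair differed beyond sampling noise. That test does not tell separate animals from repeated libraries of 1 animal; each library was counted once, and adding near-identical libraries together was an alternative.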

Additional observations from a re-analysis of the deposited data

How the results depend on the processing

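Adding near-identical libraries together was the setting that moved most. It gave 9 higher and 11 lower members in YAP Tg against control livers, in place of 15 and 21. In Tet1 KO YAP Tg livers against YAP Tg livers it gave 3 and 6, in place of 22 and 14, and in Tet1 KO YAP Tg against control livers 0 and 0, in place of 12 and 13. In decitabine against untreated livers it gave 8 and 6, in place of 14 and 16, and the TPM scale gave 9 lower members in place of 16. Fewer libraries enter the first setting, and it leaves YAP Tg and Tet1 KO YAP Tg livers without replicates. Its lost calls therefore cannot decide whether these groups differ. The TPM scale shifts the median of all genes by 0.36. The cause of each single change was not tested.

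Leaving out 1 library at a time gave 13 to 16 higher and 20 to 21 lower members in YAP Tg against control livers, and 22 to 22 higher and 13 to 14 lower in Tet1 KO YAP Tg livers against YAP Tg livers. It gave 8 to 15 higher and 9 to 15 lower in Tet1 KO YAP Tg against control livers, and 12 to 18 higher and 13 to 18 lower in decitabine against untreated livers. Same-numbered libraries showed no common deviation (correlations of deviations from -0.31 to 0.21). Within the YAP Tg and Tet1 KO YAP Tg groups the excess coefficient of variation was only 0.008 to 0.039, which leaves little deviation to correlate. These correlations therefore cannot decide whether the numbers pair the samples. The fit with the replicate number as a block gave 15 and 21, 22 and 14, 12 and 13, and 14 and 16 higher and lower members in the 4 comparisons, as without it.

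Of the values of single named members under all alternatives, 327 of 336 kept their call (higher, lower or not called) in YAP Tg against control livers. In Tet1 KO YAP Tg livers against YAP Tg livers 358 of 373 did so. The counts were 349 of 389 in Tet1 KO YAP Tg against control livers and 353 of 378 in decitabine against untreated livers. None (0) of the called values changed sign, while the direction of values not called was not counted. Abcc4, for example, ran from -0.49 to 0.010 in Tet1 KO YAP Tg against control livers over the fits that left out a library. On the TPM scale 6 tested members changed sign, 0 of them called. Depth limits mainly the members with few reads, Abca13, Abca14, Abca17, Abcc8 and Abcg4.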

Other observations

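The authors' deposited table holds a log2 fold change of decitabine over untreated Tet1 KO YAP Tg livers, and for most ABC members it stands lower than the fold change on normalised reads; the exceptions are Abcg2, Abcg5, Abcb10 and Abcc12. Of the family, 29 of the 41 tested members are below 0 in the authors' deposited table, with a median of -0.59, against 22 and a median of -0.17 on normalised reads. Abca1 stands at -1.94 in the authors' deposited table and at 0.07 on normalised reads, and Abca5 at -0.98 in the authors' deposited table and at 0.68 on normalised reads. Abcc4 is at 0.10 in the authors' deposited table and at 1.13 on normalised reads, and Abcc3 at -0.32 in the authors' deposited table and at 0.59 on normalised reads. Abcg2 is at -1.44 in the authors' deposited table and at -1.46 on normalised reads, and Abcg3 at 2.72 in the authors' deposited table and at 2.94 on normalised reads.

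Over 8746 genes with at least 100 reads in every library, the fold change in the authors' deposited table differed from the log2 ratio of deposited TPM to deposited signal by a median of 0.0839, with a 95th percentile of 0.101. TPM is divided by gene length and the deposited signal of the untreated libraries is not. Across these genes the gap between the authors' deposited table and the fold change on normalised reads had a correlation of -0.999 with log2 gene length, given as a description over genes that share the same 6 libraries. The normalised decitabine reads were made from TPM with these same recovered lengths. Given the small difference above, the correlation follows from the calculation and is no separate evidence. The long members Abca1, Abca5 and Abcc4 are among those with the largest gap, and the short members Abcg2 and Abcg3 among those with the smallest.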
